A study of Homo sapiens with 12 samples.

Results

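MYC and 39 factors of ribosome biogenesis were followed in 2 established human colorectal carcinoma lines in which the level of CKAP2L, a protein of the mitotic spindle, had been moved in opposite directions. The 40 genes were taken as a list fixed by name, not by their values, out of 20263 genes in each deposited table, and all 40 were found by their Ensembl identifier. The list was chosen with earlier results of these data known. They are MYC, 3 subunits of RNA polymerase I, 6 proteins of small nucleolar ribonucleoproteins (snoRNPs) or their chaperone, 5 general nucleolar proteins, 13 assembly factors of the small ribosomal subunit and 12 of the large one.

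HCT116 cells carried a CKAP2L overexpression construct (3 libraries, HCT116 CKAP2L) or the control vector (3 libraries, HCT116 vector). RKO cells carried a short hairpin RNA against CKAP2L (3 libraries, RKO shCKAP2L) or a negative control (3 libraries, RKO NC). The mRNA of each line was sequenced and deposited as TPM, each gene's share of a library's transcripts per unit of gene length, scaled to a fixed total. The sources used here do not say how the constructs were delivered, whether each line was 1 clone, how many hairpin sequences were used or whether replicates were separate cultures. The spread between libraries that the p-values measure may therefore be technical.

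Ribosome assembly starts in the nucleolus, where RNA polymerase I transcribes the long precursor of the ribosomal RNAs. SnoRNPs modify and help to cut that precursor, and separate sets of assembly factors fold it into the precursors of the small and the large subunit. MYC is a transcription factor that binds the E-box CACGTG together with MAX and is known to activate many of the genes that carry out these steps. In colorectal cancer MYC is a target of WNT signalling, and nucleolar size and ribosome production are often raised.

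The targeted gene followed the labels. CKAP2L averaged 226.8 ± 6.80 TPM in HCT116 CKAP2L and 14.02 ± 1.21 TPM in HCT116 vector (SD, n = 3 each), and 7.99 ± 0.507 TPM in RKO shCKAP2L and 24.88 ± 0.880 TPM in RKO NC. For replicates 2 and 3 of RKO shCKAP2L the genotype field holds symbols that differ from the title, which was followed here, and CKAP2L lay between 7.59 and 8.56 TPM in the 3 hairpin libraries. The epithelial markers EPCAM, KRT8 and KRT18 were above 1 TPM in both lines, and in HCT116 so were all 8 markers on the list. In RKO the other 5 were below 1 TPM on average, with CDH1 at 0 in every library, and of 6 colon markers CDX2 passed 1 TPM in both lines while the other 5 did not. Sequencing depth is unknown, because TPM keeps none. Mitochondrially encoded mRNAs took 25.68 to 26.11% of TPM in HCT116 CKAP2L against 28.04 to 28.56% in HCT116 vector, and 22.44 to 23.74% in RKO shCKAP2L against 20.4 to 22.51% in RKO NC. Ribosomal protein mRNAs took 10.60 to 11.01% of TPM in HCT116 CKAP2L against 9.74 to 10.58% in HCT116 vector. In RKO they took 12.85 to 13.45% with shCKAP2L against 12.19 to 12.51% with NC. A change in such a share moves every other TPM value in the opposite direction, so many of the counts below are also given under other scalings. None of these scalings leaves out the ribosomal protein mRNAs. The comparison of calls between the lines is given with TPM alone.

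The 40 genes were abundant, and their joint share of the transcripts differed little between the groups. Their median was 67.9 TPM in HCT116 CKAP2L and 66.9 TPM in HCT116 vector, and 71.3 TPM in RKO shCKAP2L and 79.7 TPM in RKO NC (medians of group means). Summed over the 40 genes, libraries held 5406 to 5517 TPM in HCT116 CKAP2L and 5471 to 5473 TPM in HCT116 vector, so the vector libraries lay inside the range of the others. In RKO the sums were 5588 to 5645 TPM with shCKAP2L and 5591 to 5737 TPM with NC, ranges that overlap. NPM1, a nucleolar protein and histone chaperone, had the highest level of the 40 in each group, at 951.8 ± 10.7 TPM in HCT116 CKAP2L and 955.3 ± 18.0 TPM in HCT116 vector. PPAN, a large subunit assembly factor, had the lowest, at 5.79 ± 0.416 TPM in HCT116 CKAP2L and 4.32 ± 0.251 TPM in HCT116 vector. Between the control groups of the lines, which stand in separate tables and were not tested against each other, the ratio of RKO NC to HCT116 vector ran between 0.512 for BOP1 and 3.56 for UTP20.

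**Figure D1:**
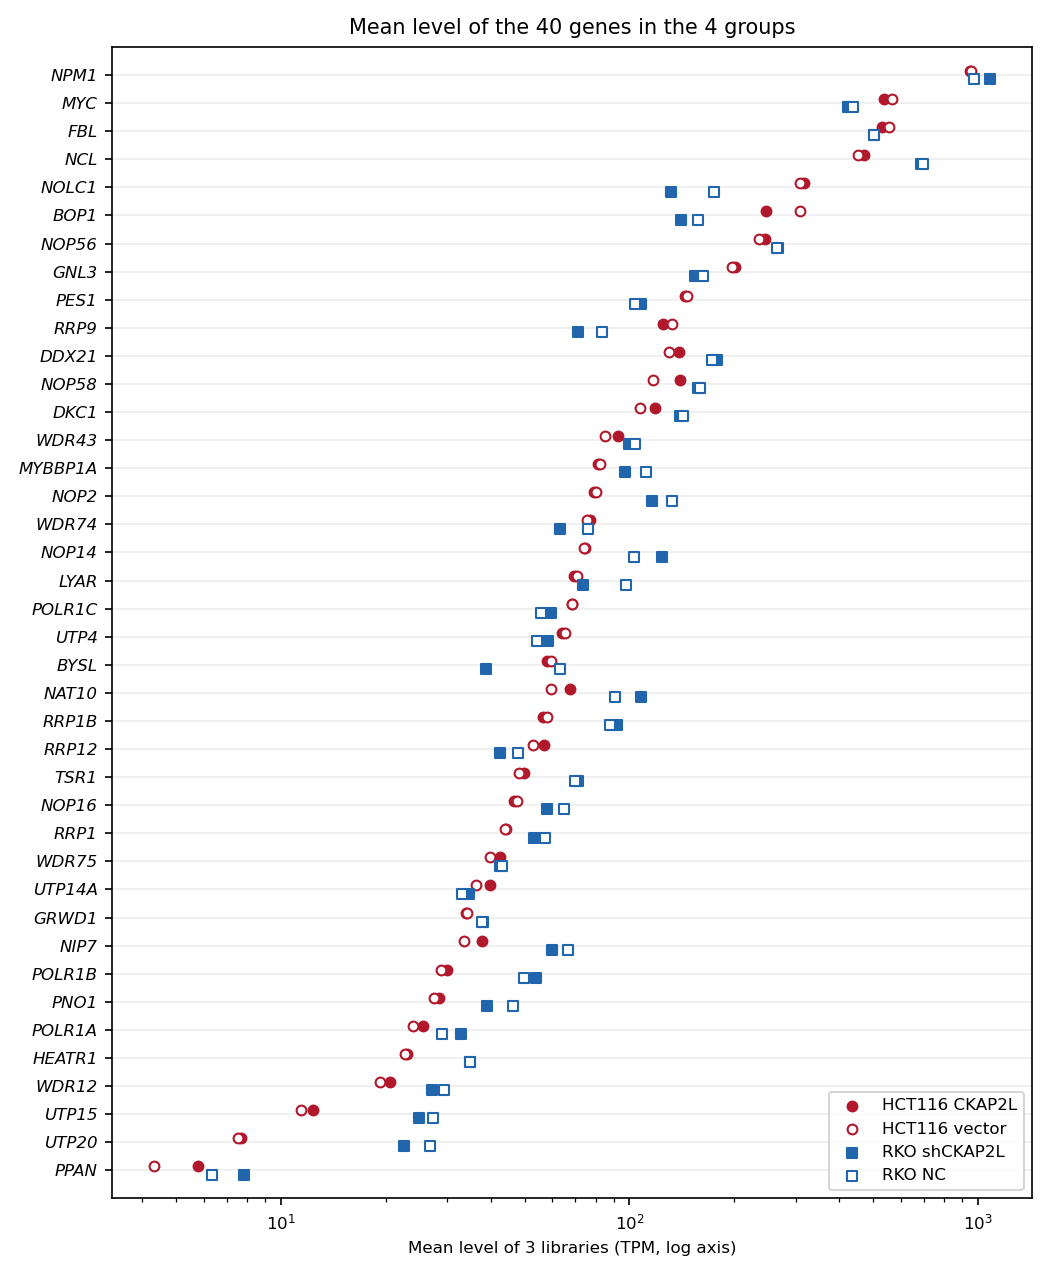
Mean TPM of the 40 genes in the 4 groups on a log axis, with 1 point per gene and group. NPM1 lies highest and PPAN lowest in each group, and UTP20 shows the widest gap between the lines, 3.56 times higher in RKO NC than in HCT116 vector.

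The promoters of 4 of the genes are printed because the comparisons below return to them: NAT10 and PPAN were called higher in both lines, and NOP14 and BYSL moved in opposite directions in RKO. They were chosen after the values were seen. Each runs 5′ to 3′ along the gene's own strand over 250 bases before and 50 bases after the RefSeq start of transcription (GRCh38.p14), and the capitals mark CACGTG. NAT10 is shown from chr11:34105379-34105678 on the plus strand, NOP14 from chr4:2963357-2963656 on the minus strand, BYSL from chr6:41921249-41921548 on the plus strand and PPAN, which holds no match, from chr19:10105973-10106272 on the plus strand.
NAT10: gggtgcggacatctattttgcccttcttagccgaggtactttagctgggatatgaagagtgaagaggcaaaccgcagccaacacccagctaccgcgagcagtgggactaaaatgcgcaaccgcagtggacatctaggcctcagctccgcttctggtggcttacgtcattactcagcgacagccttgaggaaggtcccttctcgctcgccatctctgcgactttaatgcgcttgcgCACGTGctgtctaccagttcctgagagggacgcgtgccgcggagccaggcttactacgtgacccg
NOP14: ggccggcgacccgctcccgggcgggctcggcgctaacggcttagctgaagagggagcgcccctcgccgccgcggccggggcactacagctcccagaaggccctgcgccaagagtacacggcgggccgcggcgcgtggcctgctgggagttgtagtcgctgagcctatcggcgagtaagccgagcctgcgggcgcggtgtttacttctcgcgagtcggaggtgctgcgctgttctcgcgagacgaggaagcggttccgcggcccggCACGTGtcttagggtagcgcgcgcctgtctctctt
BYSL: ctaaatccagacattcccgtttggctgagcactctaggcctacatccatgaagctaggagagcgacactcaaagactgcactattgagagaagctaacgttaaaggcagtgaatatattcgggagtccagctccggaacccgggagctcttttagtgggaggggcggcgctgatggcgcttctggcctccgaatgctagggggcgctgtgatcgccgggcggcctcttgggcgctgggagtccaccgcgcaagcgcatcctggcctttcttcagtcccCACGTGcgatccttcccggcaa
PPAN: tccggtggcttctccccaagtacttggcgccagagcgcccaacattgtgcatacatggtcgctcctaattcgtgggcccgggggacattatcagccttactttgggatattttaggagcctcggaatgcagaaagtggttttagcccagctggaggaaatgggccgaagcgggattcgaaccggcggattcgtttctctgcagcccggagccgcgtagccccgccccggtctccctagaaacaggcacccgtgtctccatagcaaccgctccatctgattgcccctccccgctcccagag

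CACGTG reads the same on both strands. It was present in 16 of the 34 genes with a window in the RefSeq promoter table (47.1%), against 8.77% of the 27305 genes in that table and 12.4% of the 10565 genes with a window that were tested in either line. Among 106 other assembly, snoRNP and RNA polymerase I genes it was present in 27.4%. CAGCTG, another E-box that also reads the same on both strands and was added after the first count was known, was present in 20.6% of the 34 genes and in 21.1% of all genes in the table. Of the 16 matches, 15 began no further than 100 bases upstream of the start (93.8%), against 58.7% of the 2821 matches over all windows. The match began 15 bases upstream in NAT10 (offset -15), 15 bases downstream in NOP14 and 28 bases downstream in BYSL, with offset 0 as the first transcribed base. NOP14 and BYSL, which changed in opposite directions in RKO, thus both hold the letters, and PPAN, which rose, does not. In RKO, 3 of 8 genes that rose held it (37.5%), 8 of 14 that fell (57.1%) and 5 of 12 that were not called (41.7%). A match is a description of the letters and no measure of binding. MYC, NOP58, NOLC1, RRP12, BOP1 and RRP1B have no window in the table.

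With CKAP2L overexpression in HCT116, few of the 40 mRNAs changed. NOP58, DKC1, WDR43, NAT10, PPAN and NIP7 rose, BOP1 fell and 33 were not called (limma on log2(TPM + 1), called at an adjusted p under 0.05 over the 12732 genes tested, all 40 of the list among them). That is 15% higher against 16.4% of all genes tested, and 2.50% lower against 4.26%, so both shares were near the background. The values of the groups did not overlap for 12 of the 40 genes, against 37.3% of all genes tested, with 10 genes higher (28.3% of all) and 2 lower (8.98% of all). The median log2 fold change was 0.03 over the 40 genes and 0.05 over all genes tested, and the median size of the change, sign set aside, was 0.049 over the 40 genes and 0.091 over all. Of the 7 calls, NOP58, NAT10, PPAN and BOP1 were held under all 15 alternatives. Under each of 3 other scalings (median of ratios, quantiles, and TPM without mitochondrial mRNAs) 3 genes rose and 3 fell, with 8.86%, 8.66% and 9.24% of all genes tested higher and 9.33%, 8.88% and 7.67% lower. Without HCT116 vector replicate 3, 9 rose and 3 fell, and without HCT116 CKAP2L replicate 1 or replicate 3, 3 rose.

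With the hairpin against CKAP2L in RKO, 25 of the 40 mRNAs changed, in a line where 68.5% of the 11442 genes tested did. POLR1A, POLR1B, POLR1C, NPM1, UTP4, NOP14, NAT10 and PPAN rose. RRP9, NOLC1, MYBBP1A, LYAR, UTP15, UTP20, RRP12, PNO1, BYSL, BOP1, WDR12, NOP2, NOP16, WDR74, RRP1, NIP7 and GNL3 fell, and 15 genes were not called. The 8 that rose are 20% of the list, against 26.4% of all genes tested, and the 17 that fell are 42.5%, against 42.1%. The groups did not overlap for 26 of the 40 genes, against 71.4% of all genes tested, with 8 genes higher (28.1% of all) and 18 lower (43.3% of all). The median log2 fold change was -0.02 over the 40 genes and -0.05 over all genes tested, and the median size was 0.113 and 0.172. All of the calls but those of POLR1C, WDR12, RRP1 and GNL3 were held under the 15 alternatives. The split moved with the scaling: 15 rose and 14 fell with median-of-ratios scaling, 16 and 14 with quantiles, and 13 and 15 without mitochondrial mRNAs. The shares of all genes tested moved with it, to 34.8% higher and 35% lower, 32.6% and 36.9%, and 31.6% and 38.1%, in the same order. In bulk RNA of this kind, fewer cells of a type and less of an mRNA per cell cannot be told apart.

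**Figure D2:**
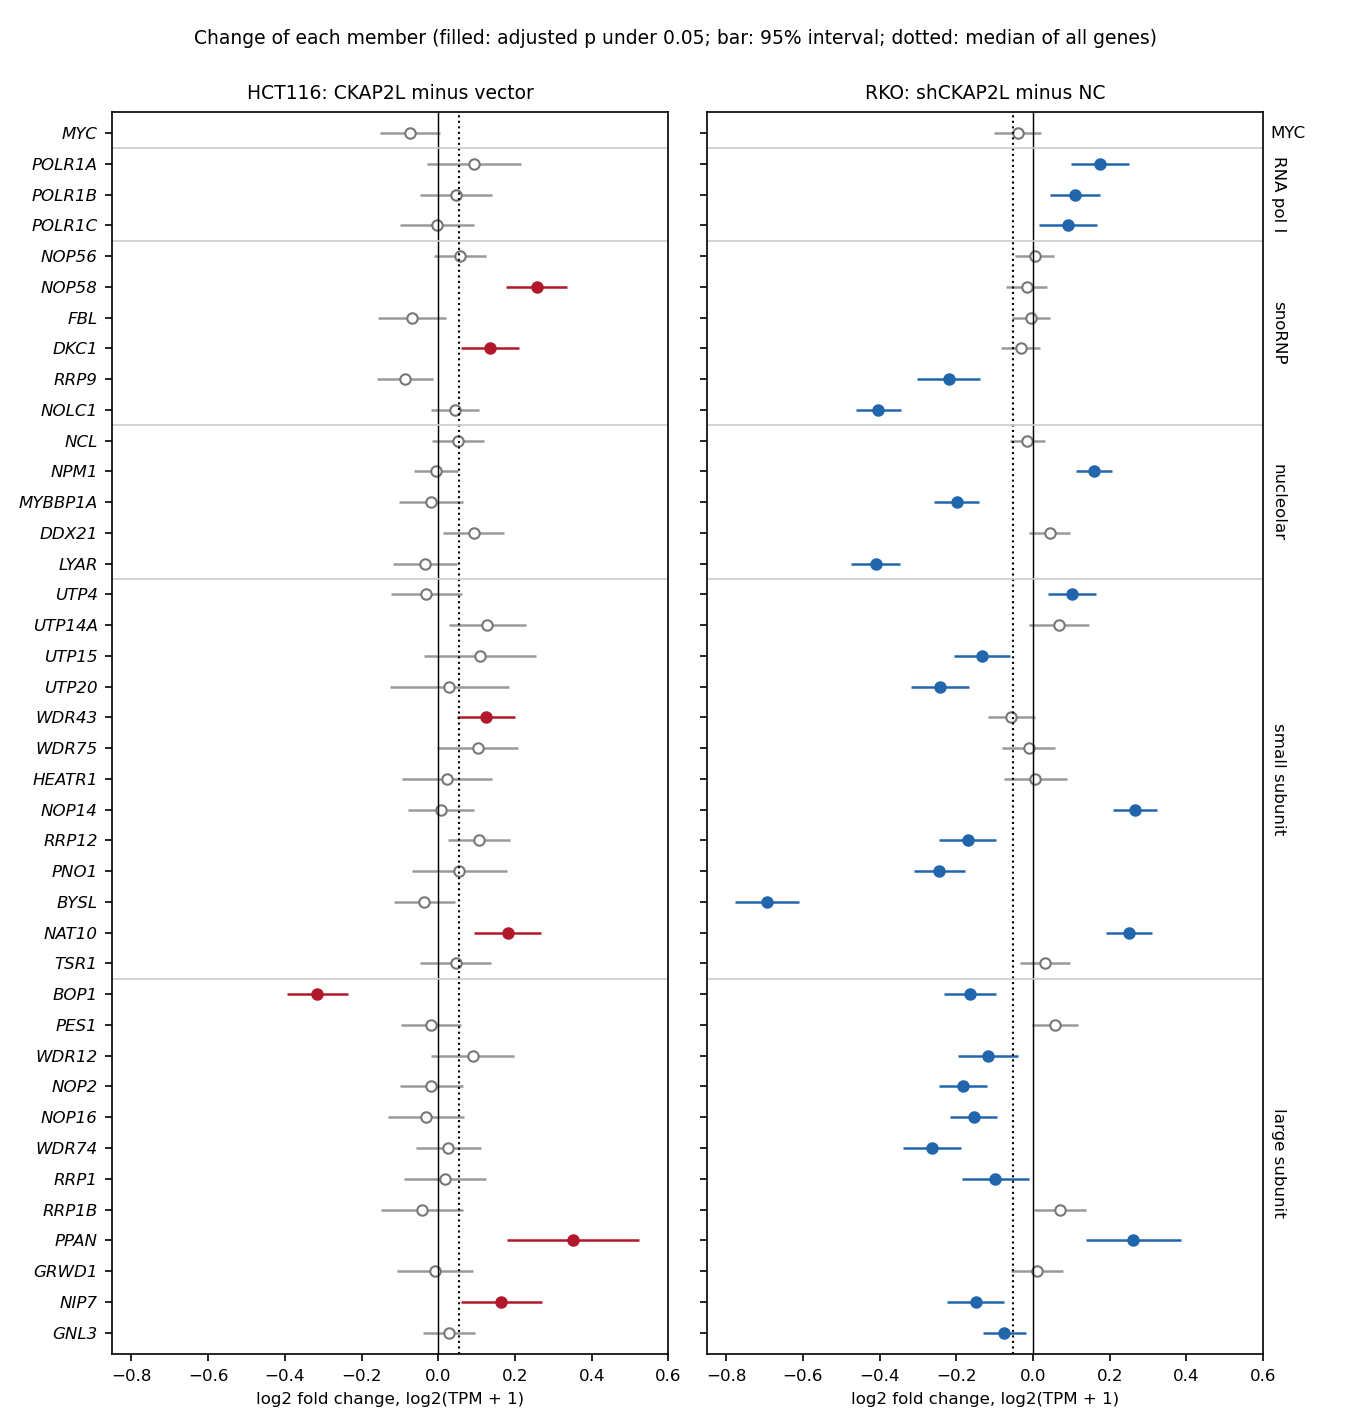
Log2 fold change of the 40 genes (points) with its 95% interval (lines), for HCT116 CKAP2L over vector and RKO shCKAP2L over NC, grouped by role; filled points have an adjusted p under 0.05 and the dotted line is the median of all genes tested. Most HCT116 points lie close to 0, and in RKO BYSL lies lowest at -0.69 and NOP14 highest at 0.27.

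MYC (ENSG00000136997, GRCh38 chromosome 8, 127735434 to 127741434) was among the most abundant of the 40 and was called in neither line. It had 535, 542 and 535 TPM in HCT116 CKAP2L, against 556, 540 and 602 TPM in HCT116 vector. The groups overlap through 1 library on each side, and the log2 fold change was -0.07 ± 0.04 (SE, 95% interval -0.15 to 0.0034, adjusted p = 0.1625). Under median-of-ratios scaling and without mitochondrial mRNAs MYC was called lower in HCT116 (adjusted p = 0.0189 to 0.0301 over the pair, and 0.0189 to 0.358 over all alternatives). In RKO it had 413, 421 and 441 TPM with shCKAP2L, against 444, 444 and 422 TPM with NC. These groups overlap too, with a log2 fold change of -0.04 ± 0.03 (95% interval -0.10 to 0.02, adjusted p = 0.2334).

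The 3 subunits of RNA polymerase I were called higher in RKO, as were 26.4% of all genes tested. They were not called in HCT116, where 20.6% of all genes tested were, and whether the lines differ was not tested. POLR1A, the largest subunit with part of the active site, had 32.0, 33.1 and 33.2 TPM in RKO shCKAP2L, against 29.8, 29.2 and 27.8 TPM in RKO NC. The groups do not overlap, and the log2 fold change was 0.17 ± 0.04 (adjusted p = 4.83e-04). POLR1B, the second largest subunit, had 54.0, 54.4 and 53.3 TPM in RKO shCKAP2L, against 49.3, 51.4 and 49.0 TPM in RKO NC, also without overlap, with a log2 fold change of 0.11 ± 0.03 (adjusted p = 4.90e-03). POLR1C, a subunit shared with RNA polymerase III, had 58.4, 60.4 and 59.5 TPM in RKO shCKAP2L, against 54.4, 59.0 and 53.8 TPM in RKO NC, and its groups overlap. Its log2 fold change of 0.09 ± 0.04 (adjusted p = 0.03099) lost the call under 6 of 15 alternatives, which include no filter on low values and leaving out RKO NC replicate 1 or 3 or RKO shCKAP2L replicate 2 or 3 (adjusted p = 6.66e-04 to 0.116 over all). POLR1C also shares exonic bases with XPO5, YIPF3 and LRRC73, and its value is uncertain because the handling of strand is not known. In HCT116 CKAP2L over vector the log2 fold changes of the 3 genes were 0.09 (95% interval -0.03 to 0.22), 0.05 (-0.05 to 0.14) and -0.0034 (-0.10 to 0.09), in the order POLR1A, POLR1B, POLR1C.

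Of 18 other genes of the RNA polymerase I machinery, 2 rose (11.1%, against 26.4% of all genes tested) and 11 fell (61.1%, against 42.1%) in RKO. The median log2 fold change was -0.21, against -0.05 over all genes. Under each of the 3 other scalings 4 rose and 11 fell, against 31.6 to 34.8% and 35 to 38.1% of all genes tested. POLR1H, a small subunit that takes part in cleaving the nascent transcript, had the smallest adjusted p, with 39.77 ± 1.60 TPM in RKO shCKAP2L and 66.05 ± 3.14 TPM in RKO NC (log2 fold change -0.72 ± 0.04, adjusted p = 3.28e-10). POLR1F, POLR1E and TCOF1, the treacle protein that supports transcription of ribosomal DNA, fell by 0.34, 0.29 and 0.31 on the log2 scale. The 2 that rose, which were named after their values were seen, were TAF1D, a subunit of the selectivity factor of the polymerase, with a log2 fold change of 0.19 ± 0.03 (adjusted p = 5.55e-05), and RRN3, the factor that recruits the polymerase to its promoter, with 0.17 ± 0.03 (adjusted p = 6.45e-05). In HCT116, 2 of the 18 rose and 2 fell (11.1% each, against 16.4% and 4.26% of all genes tested). These counts were 1 and 2 under median-of-ratios scaling, 0 and 2 with quantiles, and 1 and 3 without mitochondrial mRNAs. All genes tested then had 8.66 to 9.24% higher and 7.67 to 9.33% lower. The 2 that rose in HCT116 with TPM as deposited were again TAF1D and RRN3. TAF1D had 48.37 ± 2.19 TPM in HCT116 CKAP2L and 42.19 ± 2.17 TPM in HCT116 vector (log2 fold change 0.19 ± 0.05, adjusted p = 0.01228). Its call was held under 10 of 15 alternatives (adjusted p = 0.00287 to 0.0671 over all). RRN3 had 58.47 ± 1.44 TPM in HCT116 CKAP2L and 52.43 ± 1.41 TPM in HCT116 vector (log2 fold change 0.15 ± 0.04, adjusted p = 0.01383), a call lost under 6 of 15 alternatives, which include the 3 other scalings and leaving out HCT116 CKAP2L replicate 1 or vector replicate 2 (adjusted p = 0.0106 to 0.0958 over all).

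Among the 6 snoRNP proteins, NOP58 and DKC1 rose in HCT116 (33.3%, against 16.4% of all genes tested) and none fell (against 4.26%). NOLC1 and RRP9 fell in RKO (33.3%, against 42.1%) and none rose (against 26.4%). Under each other scaling NOP58 alone rose and RRP9 fell in HCT116, while in RKO NOLC1 and RRP9 fell, NOP56 rose with median-of-ratios scaling and quantiles, and FBL rose with quantiles. Of all genes tested, 8.66 to 9.24% then rose and 7.67 to 9.33% fell in HCT116, and 31.6 to 34.8% and 35 to 38.1% in RKO. NOP58, a core protein of box C/D snoRNPs (the guides of ribose methylation), had 140, 143 and 135 TPM in HCT116 CKAP2L, against 114, 114 and 121 TPM in HCT116 vector. The groups do not overlap, and the log2 fold change was 0.26 ± 0.04 (adjusted p = 2.89e-04). In RKO NOP58 had 156, 158 and 159 TPM with shCKAP2L, against 160, 162 and 157 TPM with NC, overlapping groups with a log2 fold change of -0.02 ± 0.02 (95% interval -0.07 to 0.04). In HCT116 NOP56, its partner in the particle, had a log2 fold change of 0.06 (95% interval -0.01 to 0.12) and FBL, the methyltransferase of the same particle, -0.07 (-0.16 to 0.02), neither of them called. Whether they differ from NOP58 was not tested. Without HCT116 vector replicate 3 FBL was called lower (adjusted p = 0.0102, and 0.0102 to 0.77 over all alternatives). DKC1, the pseudouridine synthase of box H/ACA snoRNPs, rose in HCT116 with a log2 fold change of 0.14 ± 0.04 (adjusted p = 0.01592). Its call was lost under the other 3 scalings, with an untrended prior and without HCT116 CKAP2L replicate 1 or 3 (adjusted p = 0.0116 to 0.205 over all alternatives).

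NOLC1, a chaperone that brings snoRNPs to the nucleolus, had 133, 131 and 131 TPM in RKO shCKAP2L, against 173, 181 and 170 TPM in RKO NC. Each hairpin library lay below each control library, 24.6% lower on average, with a log2 fold change of -0.40 ± 0.03 (adjusted p = 4.79e-09). RRP9, a protein of the box C/D particle that guides cleavage of the precursor, had 71.7, 73.1 and 69.4 TPM in RKO shCKAP2L, against 81.5, 89.2 and 79.4 TPM in RKO NC, also without overlap (log2 fold change -0.22 ± 0.04, adjusted p = 1.15e-04). In HCT116 NOLC1 had 323, 315 and 314 TPM with CKAP2L, against 312, 307 and 305 TPM with vector. Those groups do not overlap either, but the log2 fold change of 0.04 ± 0.03 (95% interval -0.02 to 0.11) was not called, adjusted p = 0.3005. RRP9 had 125, 125 and 125 TPM in HCT116 CKAP2L, against 135, 136 and 128 TPM in HCT116 vector, without overlap and not called (log2 fold change -0.09 ± 0.03, adjusted p = 0.08306, and 0.00831 to 0.245 over all alternatives, the lowest without HCT116 vector replicate 3).

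Of 11 other snoRNP genes, 2 rose (18.2%, against 26.4% of all genes tested) and 8 fell (72.7%, against 42.1%) in RKO, with a median log2 fold change of -0.17, against -0.05 over all genes. These RKO counts are given with TPM alone. Under the 3 other scalings 35 to 38.1% of all genes tested fell in RKO. In HCT116 2 rose and 3 fell (18.2% and 27.3%, against 16.4% and 4.26% of all genes tested). Under each other scaling 1 rose and 4 fell there, against 8.66 to 9.24% and 7.67 to 9.33% of all genes tested. RUVBL1 and RUVBL2, the paired ATPases that load snoRNP proteins, fell in both lines. RUVBL1 had a mean of 104.6 ± 0.658 TPM in HCT116 CKAP2L and 120.5 ± 2.71 TPM in HCT116 vector (log2 fold change -0.20 ± 0.03), and 72.57 ± 2.49 TPM in RKO shCKAP2L and 94.88 ± 0.837 TPM in RKO NC (-0.38 ± 0.03). RUVBL2 had log2 fold changes of -0.17 ± 0.04 in HCT116 (adjusted p = 7.23e-03, and 1.03e-04 to 0.0649 over the alternatives, the highest with an untrended prior) and -0.26 ± 0.03 in RKO. SHQ1, a chaperone of DKC1, rose in RKO with 21.61 ± 0.703 TPM in shCKAP2L and 15.02 ± 0.841 TPM in NC (0.50 ± 0.05, adjusted p = 1.13e-07). The RKO calls of RUVBL1, RUVBL2 and SHQ1 were held under all 15 alternatives.

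Of the 5 general nucleolar proteins, NPM1 rose (20%, against 26.4% of all genes tested) and LYAR and MYBBP1A fell (40%, against 42.1%) in RKO. None was called in HCT116, where 20.6% of all genes tested were and 2 of the 5 log2 fold changes were positive. Under each other scaling 2 rose and 2 fell in RKO, against 31.6 to 34.8% and 35 to 38.1% of all genes tested. With quantiles NPM1 was called lower in HCT116 (adjusted p = 0.0303, the lowest of 0.0303 to 0.966 over the alternatives). NPM1 had 1082, 1071 and 1101 TPM in RKO shCKAP2L, against 973, 963 and 980 TPM in RKO NC. All hairpin libraries were above all controls (log2 fold change 0.16 ± 0.02, adjusted p = 1.28e-05). NPM1 has 45 named pseudogenes, and how reads with several matches were handled is not known, so its level is uncertain. LYAR, a nucleolar zinc finger protein that takes part in processing the precursor, had 74.6, 70.9 and 74.5 TPM in RKO shCKAP2L, against 97.2, 99.8 and 96.4 TPM in RKO NC. That is 25.0% lower without overlap (log2 fold change -0.41 ± 0.03, adjusted p = 8.34e-09). MYBBP1A, a nucleolar protein that binds transcription factors, had 94.7, 99.0 and 98.4 TPM in RKO shCKAP2L, against 112, 113 and 110 TPM in RKO NC (log2 fold change -0.20 ± 0.03, adjusted p = 1.09e-05). NCL, a nucleolar RNA-binding protein, and DDX21, an RNA helicase, were called in neither line, with log2 fold changes of 0.05 and 0.09 in HCT116 and -0.01 and 0.04 in RKO. DDX21 was called higher in RKO under the other 3 scalings (adjusted p = 6.74e-04 to 0.00687 over the 3, and 6.74e-04 to 0.35 over all alternatives). In HCT116 DDX21 was called higher without vector replicate 3 (adjusted p = 0.00833, the lowest of 0.00833 to 0.518 over the alternatives).

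**Figure D3:**
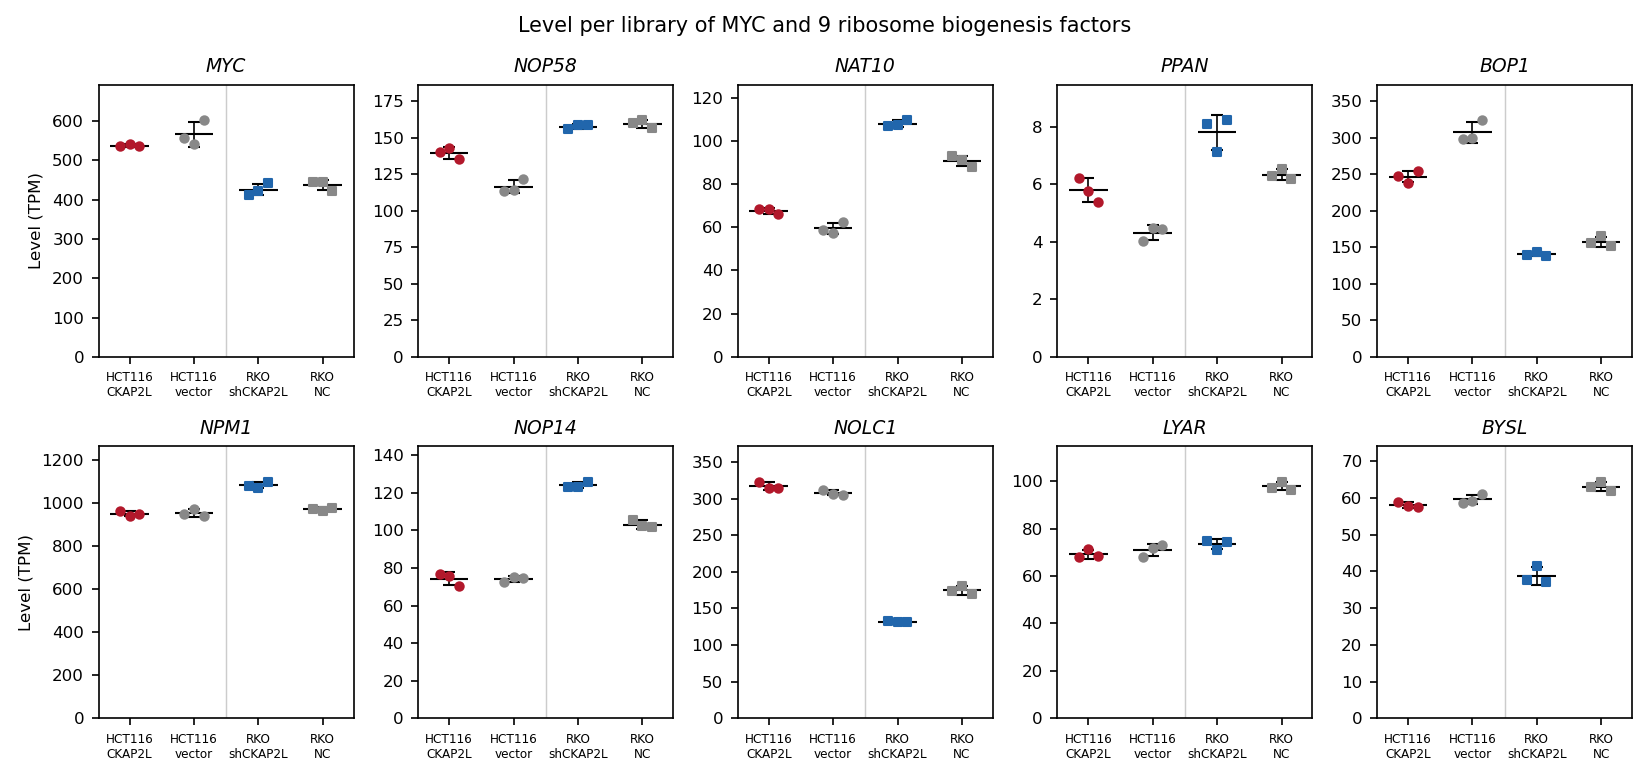
TPM of 10 of the genes in each library (points), with the group mean (line) and SD (bar), in HCT116 CKAP2L, HCT116 vector, RKO shCKAP2L and RKO NC; the 10 genes were chosen after the values were seen. BYSL, LYAR and NOLC1 are lower in the RKO hairpin libraries, NOP14 is higher there, and NAT10 and PPAN are higher in the first group of each line.

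Of the 13 small subunit factors, 3 rose (23.1%, against 26.4% of all genes tested), 5 fell (38.5%, against 42.1%) and 5 were not called in RKO. Under each of the 3 other scalings 5 rose and 5 fell, against 31.6 to 34.8% and 35 to 38.1% of all genes tested. In HCT116, 2 rose (15.4%, against 16.4%) and none fell (against 4.26%). Under each other scaling 1 rose and none fell there, against 8.66 to 9.24% and 7.67 to 9.33% of all genes tested. BYSL (bystin), needed for late cleavage and release of the small subunit precursor, had 37.7, 41.4 and 37.0 TPM in RKO shCKAP2L, against 62.9, 64.5 and 61.99 TPM in RKO NC. The highest hairpin library lay well below the lowest control, 38.7% lower on average, with a log2 fold change of -0.69 ± 0.04 (adjusted p = 5.57e-10). In HCT116 BYSL had 58.9, 57.7 and 57.6 TPM with CKAP2L, against 58.7, 59.1 and 61.0 TPM with vector, overlapping groups with a log2 fold change of -0.04 ± 0.04 (95% interval -0.12 to 0.04, adjusted p = 0.5198).

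PNO1, which acts beside BYSL on late small subunit precursors, fell in RKO with 38.9, 38.3 and 39.7 TPM in shCKAP2L, against 47.2, 46.5 and 45.3 TPM in NC (log2 fold change -0.24 ± 0.03, adjusted p = 5.44e-06). RRP12, an export factor of the precursor, fell by 0.17 on the log2 scale (SE 0.03, adjusted p = 4.36e-04). UTP20 and UTP15, components of the small subunit processome (the early assembly complex on the precursor), fell by 0.24 and 0.13 (adjusted p = 2.20e-05 and 2.98e-03). UTP20 had 22.1, 22.7 and 22.7 TPM in RKO shCKAP2L, against 27.3, 27.0 and 26.0 TPM in RKO NC, without overlap.

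NOP14, another processome protein, moved the other way. It had 123, 123 and 126 TPM in RKO shCKAP2L, against 106, 102 and 102 TPM in RKO NC, with no overlap and a log2 fold change of 0.27 ± 0.03 (adjusted p = 3.61e-07). In HCT116 its log2 fold change was 0.0060 (95% interval -0.08 to 0.09). UTP4 (also known as cirhin), a processome protein mutated in a childhood liver cirrhosis, had 57.2, 58.6 and 59.5 TPM in RKO shCKAP2L, against 54.6, 55.1 and 53.6 TPM in RKO NC (log2 fold change 0.10 ± 0.03, adjusted p = 6.92e-03). UTP4 shares exonic bases with CHTF8 on the annotation, and its value is uncertain for the same reason as that of POLR1C.

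NAT10, the acetyltransferase that modifies cytidines of the small subunit RNA, rose in both lines. It had 68.3, 68.3 and 66.0 TPM in HCT116 CKAP2L, against 58.7, 57.4 and 62.3 TPM in HCT116 vector, higher by 0.18 ± 0.04 on the log2 scale (adjusted p = 6.74e-03). The RKO libraries held 107, 108 and 110 TPM with shCKAP2L, against 92.8, 91.2 and 88.0 TPM with NC, a log2 fold change of 0.25 ± 0.03 (adjusted p = 1.26e-06). Neither pair of groups overlaps, although CKAP2L itself moved in opposite directions in the lines. WDR43, a processome protein, rose in HCT116 with 93.0, 93.1 and 92.8 TPM in CKAP2L, against 82.8, 85.4 and 87.4 TPM in vector (log2 fold change 0.12 ± 0.03, adjusted p = 0.02188), and lost the call under 9 of 15 alternatives, which include the 3 other scalings and leaving out any of the 6 libraries but vector replicate 3 (adjusted p = 4.89e-03 to 0.136 over all). HEATR1, WDR75, UTP14A and TSR1 were called in neither line, with RKO log2 fold changes between -0.01 for WDR75 and 0.07 for UTP14A. In RKO UTP14A and TSR1 were called higher under the 3 other scalings, and UTP14A also without RKO shCKAP2L replicate 2 (adjusted p = 9.00e-03 to 0.488 for UTP14A and 2.18e-03 to 0.71 for TSR1 over all alternatives). In HCT116 UTP14A, WDR75 and RRP12 were called higher without vector replicate 3 (adjusted p = 0.0287, 0.0327 and 0.0301). WDR43 was called lower in RKO without NC replicate 3 (adjusted p = 0.0266).

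Of the 12 large subunit factors, 1 rose (8.33%, against 26.4% of all genes tested) and 8 fell (66.7%, against 42.1%) in RKO, with a median log2 fold change of -0.11, against -0.05 over all genes. The split was 4 higher and 5 lower under median-of-ratios scaling or quantiles and 3 higher and 6 lower without mitochondrial mRNAs. In that order, all genes tested had 34.8%, 32.6% and 31.6% higher and 35%, 36.9% and 38.1% lower. In HCT116 2 rose and 1 fell (16.7% and 8.33%, against 16.4% and 4.26% of all genes tested). Under each other scaling 1 rose and 1 fell there (8.33% each), against 8.66 to 9.24% and 7.67 to 9.33% of all genes tested. BOP1, PES1 and WDR12 form the PeBoW complex, which is needed to cut the precursor on the large subunit side. BOP1 fell in both lines. It had 248, 239 and 254 TPM in HCT116 CKAP2L, against 299, 300 and 324 TPM in HCT116 vector, 19.8% lower without overlap (log2 fold change -0.32 ± 0.04, adjusted p = 5.17e-05). The RKO libraries held 139, 144 and 139 TPM with shCKAP2L, against 155, 166 and 152 TPM with NC, again without overlap (log2 fold change -0.16 ± 0.03, adjusted p = 2.84e-04). PES1 was called in neither line, with log2 fold changes of -0.02 (95% interval -0.10 to 0.06) in HCT116 and 0.06 (-0.0039 to 0.12) in RKO. It was called higher in RKO under the 3 other scalings and without RKO shCKAP2L replicate 3 (adjusted p = 7.41e-04 to 0.278 over all alternatives). WDR12 was not called in HCT116 (0.09, -0.02 to 0.20) and fell by 0.12 in RKO (adjusted p = 0.01018), a call lost under median-of-ratios scaling and quantiles (0.0997 and 0.138) and without RKO NC replicate 1 (0.0553), and ranging between 0.00844 and 0.138 over all alternatives.

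WDR74, which works with the AAA ATPase NVL on early large subunit precursors, had 65.3, 64.8 and 59.5 TPM in RKO shCKAP2L, against 75.9, 77.6 and 74.5 TPM in RKO NC. The groups do not overlap, and the log2 fold change was -0.26 ± 0.04 (adjusted p = 9.22e-06). NOP2, a methyltransferase of the large subunit RNA, had 118, 116 and 115 TPM in RKO shCKAP2L, against 133, 136 and 127 TPM in RKO NC (log2 fold change -0.18 ± 0.03, adjusted p = 5.66e-05). NOP16, a nucleolar assembly factor, fell by 0.16 in RKO (SE 0.03, adjusted p = 1.61e-04). RRP1 and GNL3 (nucleostemin) fell by 0.10 and 0.08 (adjusted p = 0.04339 and 0.01824). Both lost the call under the 3 other scalings, with an untrended prior and without RKO shCKAP2L replicate 1 or RKO NC replicate 1. RRP1 also lost it with no filter on low values and without RKO shCKAP2L replicate 2 or 3 or RKO NC replicate 2. The adjusted p was 4.34e-03 to 0.622 for RRP1 and 0.011 to 0.479 for GNL3 over all alternatives. RRP1B and GRWD1 were called in neither line. In RKO RRP1B was called higher under the 3 other scalings and without RKO NC replicate 2 (adjusted p = 4.30e-04 to 0.226 over all alternatives), and GRWD1 under median-of-ratios scaling and quantiles (0.0437 to 0.985 over all).

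PPAN rose in both lines. It had 6.22, 5.76 and 5.39 TPM in HCT116 CKAP2L, against 4.03, 4.47 and 4.46 TPM in HCT116 vector, 34.0% higher without overlap (log2 fold change 0.35 ± 0.08, adjusted p = 7.85e-03). The RKO libraries held 8.09, 7.11 and 8.24 TPM with shCKAP2L, against 6.29, 6.55 and 6.18 TPM with NC, also without overlap (0.26 ± 0.06, adjusted p = 9.21e-04). PPAN shares exonic bases with P2RY11 and with the readthrough gene PPAN-P2RY11. P2RY11 had 10.1, 9.29 and 8.41 TPM in HCT116 CKAP2L, against 7.26, 7.90 and 7.23 TPM in HCT116 vector (log2 fold change 0.28, adjusted p = 0.01856). In RKO P2RY11 had 8.51, 8.46 and 9.19 TPM with shCKAP2L, against 6.85, 6.09 and 7.64 TPM with NC (0.31, adjusted p = 6.28e-04), while PPAN-P2RY11 was at 0 or 0.03 TPM in all 12 libraries. The rise of PPAN cannot be told apart from that of its neighbour with values per gene.

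NIP7, a nucleolar factor of precursor processing, was the single one of the 40 genes called in opposite directions with TPM as deposited. It had 37.1, 37.0 and 38.7 TPM in HCT116 CKAP2L, against 34.7, 34.6 and 31.2 TPM in HCT116 vector (log2 fold change 0.16 ± 0.05, adjusted p = 0.0304), and 58.8, 61.2 and 59.8 TPM in RKO shCKAP2L, against 63.2, 69.3 and 67.5 TPM in RKO NC (-0.15 ± 0.03, adjusted p = 1.27e-03). Neither pair of groups overlaps. The HCT116 call was lost under 9 of 15 alternatives (adjusted p = 0.0231 to 0.214 over all), and the RKO call was held under all 15. The 9 were the 3 other scalings, no filter on low values, an untrended prior, and leaving out HCT116 vector replicate 3 or any CKAP2L library. NIP7 shares exonic bases with COG8 on the other strand and has 3 named pseudogenes, so its value is uncertain.

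Set side by side, the calls in the lines, with TPM as deposited, coincided for the list about as often as for all genes. NAT10 and PPAN were higher in both (5.00% of the list, against 5.15% of the 11024 genes tested in both lines), and BOP1 was lower in both (2.50% against 2.40%). NIP7, higher in HCT116 and lower in RKO, made 2.50% of the list, against 7.32% of all genes, and no gene of the list was lower in HCT116 and higher in RKO, against 0.943% of all genes. The 12 genes called in neither line, MYC, NOP56, FBL, NCL, DDX21, UTP14A, WDR75, HEATR1, TSR1, PES1, RRP1B and GRWD1, made 30.0% of the list, against 25.7% of all genes.

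**Figure D4:**
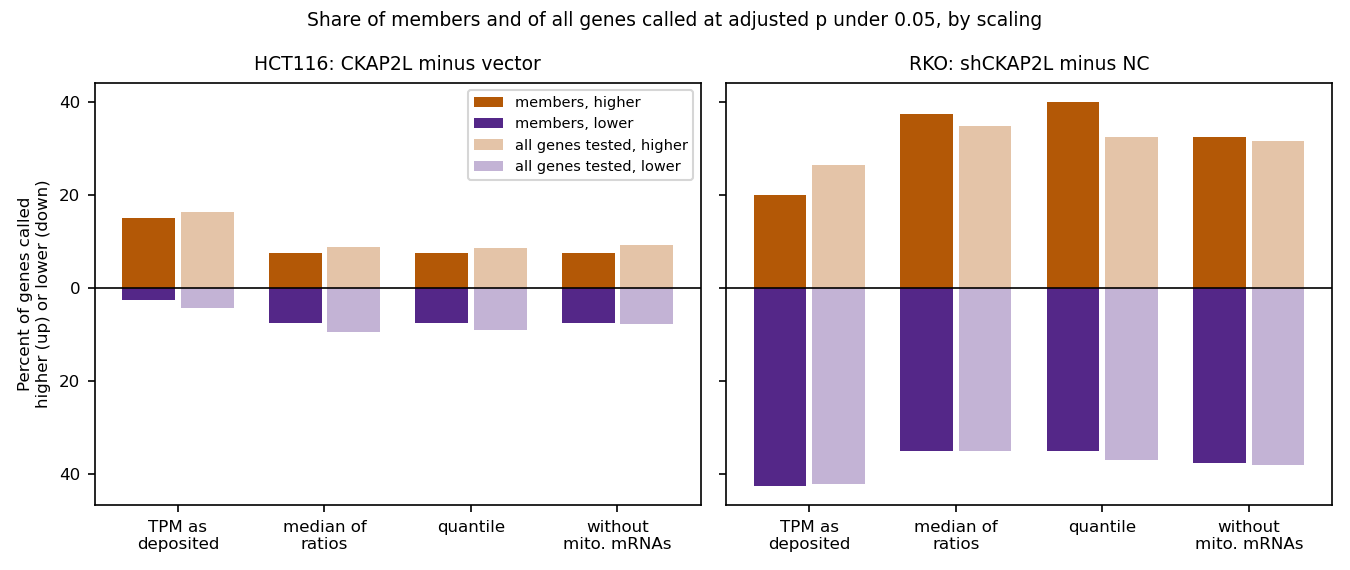
Percent of the 40 genes and of all genes tested that were called higher (upward) or lower (downward) in HCT116 CKAP2L over vector and in RKO shCKAP2L over NC, under TPM and 3 other scalings. In RKO the share of the list called higher is 20% with TPM and larger under each other scaling, and in HCT116 it is 15% with TPM and smaller under each other scaling.

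The other assembly factors and the wider MYC network give the setting of the list. Of 43 other small subunit factors tested in RKO, 14 rose and 16 fell (32.6% and 37.2%), and of 49 other large subunit factors 6 rose and 21 fell (12.2% and 42.9%), against 26.4% and 42.1% of all genes tested. Under median-of-ratios scaling these counts were 19 and 12, and 15 and 19, against 34.8% and 35% of all genes tested. The widest small subunit changes there were NOL11, a processome protein, with 70.04 ± 1.32 TPM in RKO shCKAP2L and 34.79 ± 0.610 TPM in RKO NC (log2 fold change 0.99 ± 0.03), and UTP3, with 65.96 ± 2.44 TPM in RKO shCKAP2L and 117.7 ± 1.55 TPM in RKO NC (-0.83 ± 0.03). Both exceed the change of BYSL. In HCT116, 2 of the 43 small subunit factors rose and 4 fell (4.65% and 9.30%), and 9 of the 49 large subunit factors rose and 2 fell (18.4% and 4.08%), against 16.4% and 4.26% of all genes tested. Under median-of-ratios scaling these counts were 0 and 8, and 4 and 7, against 8.86% and 9.33% of all genes tested.

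Of 18 MYC partners and regulators tested, 3 rose and 1 fell in HCT116 (16.7% and 5.56%, against 16.4% and 4.26% of all genes tested). In RKO 3 rose and 9 fell (16.7% and 50%, against 26.4% and 42.1%). Under median-of-ratios scaling these counts were 1 and 2, and 5 and 8. All genes tested then had 8.86% higher and 9.33% lower in HCT116, and 34.8% and 35% in RKO. MXD4, which competes with MYC for MAX, rose in both lines, with 31.66 ± 0.364 TPM in HCT116 CKAP2L and 28.22 ± 1.68 TPM in HCT116 vector (log2 fold change 0.16 ± 0.05, adjusted p = 0.03301). That HCT116 call was lost under 10 of 15 alternatives, which include the 3 other scalings and leaving out any library but vector replicate 3 (adjusted p = 5.49e-03 to 0.136 over all). In RKO MXD4 had 26.62 ± 0.501 TPM with shCKAP2L and 16.17 ± 0.567 TPM with NC (0.69 ± 0.04, adjusted p = 5.53e-10). Other MXD genes and MAX, named after their values were seen, showed other patterns. MXD1 rose in HCT116 (0.33 ± 0.07, adjusted p = 3.46e-03) and fell in RKO (-0.20 ± 0.03, adjusted p = 1.16e-04). MXD3 was not called in HCT116 (-0.11 ± 0.06, adjusted p = 0.2111) and fell in RKO (-0.29 ± 0.05, adjusted p = 4.46e-05). MAX was not called in HCT116 (0.10 ± 0.04, adjusted p = 0.0824) and rose in RKO (0.36 ± 0.03, adjusted p = 6.53e-08). AURKA, a mitotic kinase that stabilises MYC family proteins, fell in both, by 0.18 in HCT116 (adjusted p = 0.01527, and 0.0715 without HCT116 CKAP2L replicate 1, the highest of 0.00307 to 0.0715 over the alternatives) and 0.34 in RKO on the log2 scale. Among MYC targets outside the nucleolus, 5 rose and 6 fell of 29 tested in HCT116 (17.2% and 20.7%, against 16.4% and 4.26% of all genes tested). In RKO 6 rose and 17 fell of 30 (20% and 56.7%, against 26.4% and 42.1%). Under median-of-ratios scaling these counts were 4 and 10, and 9 and 12, against the shares of all genes given above for that scaling. FASN, the fatty acid synthase, and SLC7A5, an importer of large neutral amino acids, were called in opposite directions. FASN had 396.5 ± 7.00 TPM in HCT116 CKAP2L and 300.8 ± 19.7 TPM in HCT116 vector, and 271.9 ± 5.73 TPM in RKO shCKAP2L and 377.8 ± 16.1 TPM in RKO NC. SLC7A5 had log2 fold changes of 0.30 ± 0.03 in HCT116 and -0.42 ± 0.03 in RKO. Other genes of this list were called in the same direction in both lines. LDHA fell in both (-0.29 ± 0.03 in HCT116 and -0.24 ± 0.02 in RKO). ODC1 rose in both (0.205 ± 0.03 in HCT116 and 0.203 ± 0.03 in RKO). Of further genes, named after their values were seen, PTMA, HSPD1 and TRAP1 fell in both and TFRC rose in both. GART rose in HCT116 and fell in RKO. CCND2, a cyclin of the G1 phase, had 66.85 ± 1.51 TPM in RKO shCKAP2L and 150.7 ± 2.03 TPM in RKO NC (-1.16 ± 0.03, adjusted p = 9.16e-14). ENO1, a glycolytic enolase, moved the other way, with 1741 ± 5.797 TPM in RKO shCKAP2L and 906.1 ± 24.8 TPM in RKO NC (0.94 ± 0.02, adjusted p = 2.03e-13). CCND2 was not among the genes tested in HCT116, and ENO1 was not called there (-0.01 ± 0.03, adjusted p = 0.7587).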

How the data were processed

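RNA was measured in 12 libraries of 2 lines, grouped and numbered by their titles. The authors deposited TPM values in a separate table for each line, covering 20263 Ensembl genes. The submitters' processing notes name HISAT2 2.0, bedtools 2.26.0, Trimmomatic 0.36 and FastQC 0.11.2, and build GRCh38. The sources used here do not give the counting tool, annotation or use of strand. TPM keeps no depth, so no counting interval was computed, and as a share it moves with abundant transcripts.

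Values were taken as log2(TPM + 1), line by line, keeping genes whose TPM averaged 1 or more over the 6 libraries (12732 in HCT116, 11442 in RKO). Fold changes on this scale understate the change of low genes. The test was that of limma 3.58.1 (R 4.3.3), two-sided, without covariates and with a trended prior variance, adjusted by Benjamini-Hochberg over all genes tested, and called at an adjusted p under 0.05. Each ± after a fold change is its SE, and each after a TPM mean its SD over 3 libraries. The fit was tested on simulated data in which few genes changed and the noise was independent. Such data cannot test the scaling or whether the replicates are technical. The 15 alternatives per line were pseudocounts of 0.1 and 5, no filter, a mean TPM of at least 5, median-of-ratios and quantile scaling, TPM without mitochondrial mRNAs, an untrended prior, a replicate block, and each of the 6 libraries left out in turn.

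The 40 genes, the other lists and the tests were chosen with earlier results of these data known. All 40 genes could be named, and of each other list up to 4 called genes per line with the smallest adjusted p. Genes named beyond these are marked as named after their values were seen. Positions are those of GENCODE release 29 (GRCh38), and promoters are from RefSeq (GRCh38.p14). On that annotation 16 of the 40 genes share exonic bases with another coding gene, 16 with a gene on the other strand, and 6 have named pseudogenes. Since the use of strand and of multiply matching reads is unknown, values of such genes are uncertain.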

Additional observations from a re-analysis of the deposited data

How the results depend on the processing

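TPM tables keep no depth, so precision rests on 3 libraries a group, and the labels name no separate cultures. With median-of-ratios scaling, quantiles and TPM without mitochondrial mRNAs, in that order, HCT116 had 3, 3 and 3 of the 40 genes higher (6 with TPM), 3, 3 and 3 lower (1), and a median log2 fold change of -0.0269, -0.0182 and -0.0171 (0.0282). All genes tested in HCT116 then had 1128, 1102 and 1175 higher (2082) and 1188, 1131 and 976 lower (543). In RKO 15, 16 and 13 of the 40 genes were higher (8), and the median was 0.031, 0.0281 and 0.0083 (-0.0245). An untrended prior gave 3 genes of the list higher in HCT116 and 267 of all genes lower, and no filter on low values gave 341 lower. Leaving out 1 library gave 3 to 9 of the 40 genes higher in HCT116, 1 to 3 lower, a median of 0.0171 to 0.0462, 1184 to 2849 of all genes higher and 296 to 577 lower. The ends at 9, 3 and 2849 came without HCT116 vector replicate 3. In RKO it gave medians of -0.0323 to -0.0177. The cause was not tested.

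Of 600 gene values each, 54 in HCT116 and 26 in RKO turned sign. All were called under neither setting except FBL in RKO, called higher with quantiles (adjusted p = 0.0013). In HCT116, median-of-ratios scaling gave POLR1B -0.011, NOP56 -0.0025, NOLC1 -0.015, NCL -0.0064, UTP20 -0.023, HEATR1 -0.033, NOP14 -0.052, PNO1 -0.0014, TSR1 -0.012, WDR74 -0.031, RRP1 -0.041 and GNL3 -0.031. Quantiles gave POLR1B -0.014, NCL -0.016, UTP20 -0.043, HEATR1 -0.038, NOP14 -0.028, PNO1 -0.0066, TSR1 -0.0075, WDR74 -0.011, RRP1 -0.034 and GNL3 -0.020. TPM without mitochondrial mRNAs gave POLR1B -0.00013, NOLC1 -0.0041, UTP20 -0.014, HEATR1 -0.023, NOP14 -0.041, TSR1 -0.0010, WDR74 -0.021, RRP1 -0.030 and GNL3 -0.020. In RKO, median-of-ratios scaling gave MYC 0.016, NOP58 0.039, FBL 0.050, DKC1 0.023, NCL 0.041 and WDR75 0.043. Quantiles gave MYC 0.023, NOP58 0.037, FBL 0.067, DKC1 0.013, NCL 0.033, WDR43 0.011 and WDR75 0.047. TPM without mitochondrial mRNAs gave NOP58 0.016, FBL 0.027, DKC1 0.00073, NCL 0.018 and WDR75 0.021. Leaving out 1 library gave, in HCT116, POLR1C -0.037 to 0.033, NPM1 -0.017 to 0.0094, MYBBP1A -0.043 to 0.0079, UTP20 -0.011 to 0.077, HEATR1 -0.011 to 0.076, NOP14 -0.019 to 0.042, PNO1 -0.0072 to 0.12, PES1 -0.051 to 0.0016, NOP2 -0.045 to 0.0079, WDR74 -0.0044 to 0.053, RRP1 -0.028 to 0.057, RRP1B -0.083 to 0.012 and GRWD1 -0.041 to 0.012, and in RKO NOP56 -0.0095 to 0.015, FBL -0.016 to 0.0089, WDR75 -0.033 to 0.0065, HEATR1 -0.029 to 0.039 and GRWD1 -0.00095 to 0.027.

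Same-numbered libraries of the groups compared did not deviate together (Pearson's r across genes, which are not independent replicates, -0.0684, -0.0361 and -0.0881 in HCT116 and -0.0364, 0.0486 and -0.0432 in RKO), so the numbers do not pair them. With the replicate number as a block, 6 genes of the list were higher and 1 lower in HCT116, and 8 and 17 in RKO, as without it.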
